A study of Mus musculus with 10 samples.

Results

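The creatine and adenylate kinase energy shuttle was followed in mouse left ventricles under pressure overload through 8 genes, *Ckm*, *Ckmt2*, *Ckb*, *Gatm*, *Gamt*, *Slc6a8*, *Ak1* and *Ampd3*. They were picked by gene symbol out of the 19942 distinct symbols on the array, and each was represented by 1 probe. Adult male C57BL/6J mice, 8 weeks old and weighing 20 to 25 g, underwent transverse aortic banding (TAB), a surgical narrowing of the aorta that raises the pressure the left ventricle works against, or a sham operation without banding. Left ventricles were taken 3, 5, 7, 14 and 28 days later, with 1 array for each operation and day, so that 5 TAB and 5 sham arrays were compared. Values by day are given in this order throughout. All animals were of 1 wild-type strain and sex, and the number of mice behind an array was not given in the sources used here. The TAB sample of day 14 by its title carried a day of 15 in its condition label.

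Creatine kinase moves a phosphate group between ATP and creatine. In heart muscle the mitochondrial enzyme makes phosphocreatine where ATP is produced, and the cytosolic enzyme turns it back into ATP at the myofibrils and ion pumps. Adenylate kinase recovers ATP from ADP and leaves AMP, and AMP deaminase turns that AMP into IMP. Loss of creatine kinase activity and of phosphocreatine is a known feature of the hypertrophied and failing heart, in which the brain-type isozyme CKB, abundant in the fetal heart, is known to reappear.

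Of the 8 probes, 7 were measured and 1 was not. The probe of *Ckmt2*, the mitochondrial creatine kinase of striated muscle, had background-subtracted intensities of -6 to 4 on the TAB arrays and 0 to 6 on the sham arrays. Its spot was found on 0 of 10 arrays, so no level of *Ckmt2* is given. The spots of the other 7 probes were found on all 10 arrays, but they were not equally bright. *Gamt* had a detection p-value in the deposited table of at least 0.05 on 5 of 5 TAB and 5 of 5 sham arrays, *Gatm* on 5 of 5 and 4 of 5, and *Ampd3* on 1 of 5 and 0 of 5. For *Gatm* and *Gamt* the log2 ratios below are those of dim probes and no fold is given. The symbol *Ckb* was also once used for choline kinase beta, *Chkb*, which had a separate probe on the array. Across the 10 arrays the raw median intensity was 34 to 57, and 40.2% to 47.3% of spots were not found. The defining markers of heart muscle *Myh6*, *Actc1*, *Tnnt2*, *Tnni3*, *Myl2*, *Ryr2* and *Pln* were found on all 10 arrays, as a left ventricle should show, and *Myh7* was not analysed here because no probe was matched to its symbol.

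The 250 bases before the transcription starts of the genes on which the results turn are shown, since *Ckm* and *Ckb* encode subunits of the same cytosolic enzyme and *Ak1* its adenylate kinase counterpart. They were taken from RefSeq on the GRCm38.p6 build, 5′ to 3′ on the strand of the gene. *Ckm* lies at chr7:19410844-19411093 on the plus strand, *Ckb* at chr12:111672339-111672588 on the minus strand, and the first of 4 annotated starts of *Ak1* at chr2:32621508-32621757 on the plus strand. Capitals mark matches to the motifs searched.
Ckm: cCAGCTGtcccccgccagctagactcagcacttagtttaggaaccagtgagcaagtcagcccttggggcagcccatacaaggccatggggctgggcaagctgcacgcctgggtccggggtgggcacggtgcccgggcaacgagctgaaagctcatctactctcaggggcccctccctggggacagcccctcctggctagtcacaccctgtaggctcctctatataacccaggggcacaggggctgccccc
Ckb: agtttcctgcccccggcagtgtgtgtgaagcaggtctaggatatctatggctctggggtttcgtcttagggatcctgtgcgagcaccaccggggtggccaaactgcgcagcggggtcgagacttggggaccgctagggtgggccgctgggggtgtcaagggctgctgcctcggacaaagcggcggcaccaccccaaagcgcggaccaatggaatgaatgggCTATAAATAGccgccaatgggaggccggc
Ak1: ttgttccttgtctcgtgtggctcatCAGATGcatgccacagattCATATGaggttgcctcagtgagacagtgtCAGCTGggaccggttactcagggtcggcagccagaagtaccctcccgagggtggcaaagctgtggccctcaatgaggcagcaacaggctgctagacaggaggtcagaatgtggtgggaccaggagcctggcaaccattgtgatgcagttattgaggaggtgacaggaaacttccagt

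The motifs were AAGGTCA, the site of estrogen-related and other nuclear receptors, TATAAA, the E-box CANNTG of basic helix-loop-helix factors, the MEF2 site and the CArG site of serum response factor, each searched on both strands. The *Ckm* sequence held 1 E-box, at the 5′ end of the stretch shown. The *Ckb* sequence held no E-box, and its TATAAA match 28 bases before the start lay inside a MEF2-type match. The *Ak1* sequence held 3 E-boxes, 225, 206 and 177 bases before the start, and among its other starts, not shown, the window of the third held AAGGTCA 90 bases before that start and that of the second held TATAAA inside a MEF2-type match, 21 bases after that start. Over all 32851 windows of 300 bases, 250 before to 50 after a start, 72.3% held an E-box, 13.6% TATAAA, 4.72% AAGGTCA, 3.19% a MEF2-type match and 1.63% a CArG match. A window was listed for 7 of the 8 genes, and none was listed for *Slc6a8*. These matches are a description of the letters only.

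Over the 5 days, 1 of the 7 measured members differed between TAB and sham, with *Ckb* higher in TAB. In comparison, 14.2% of all 19976 probes that passed the filter on low values were called by the same test, 7.47% as higher and 6.73% as lower. Of the probes called, 52.6% were higher in TAB, and 66.4% were with median scaling alone and 65.5% with quantile normalization within each operation. The 2836 calls became 13, 35, 23 and 184 without day 3, 5, 7 and 14, but 2773 without day 28. The test was the moderated test of limma on log2 normalized intensities with the day as a block, called at an adjusted p under 0.05 over all kept probes. The median log2 ratio of TAB over sham was 0.24 over the 7 members and -0.05 over all kept probes. No member reached the rule by which the study defined a differentially expressed gene on a single day, a log2 ratio more than 2 SDs from 0, which 5.4%, 5.46%, 5.49%, 5.66% and 5.91% of probes met on the 5 days. The largest absolute log2 ratio of a member on those days was 0.73, 0.77, 0.64, 0.74 and 0.91, against thresholds of 1.75, 1.87, 1.71, 1.46 and 1.38. On each day every member thus had a smaller absolute ratio than the 5.4% to 5.91% of probes past the threshold. With 7 members, a count of 0 is near those shares, and no result about the members is drawn from it.

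**Figure D1:**
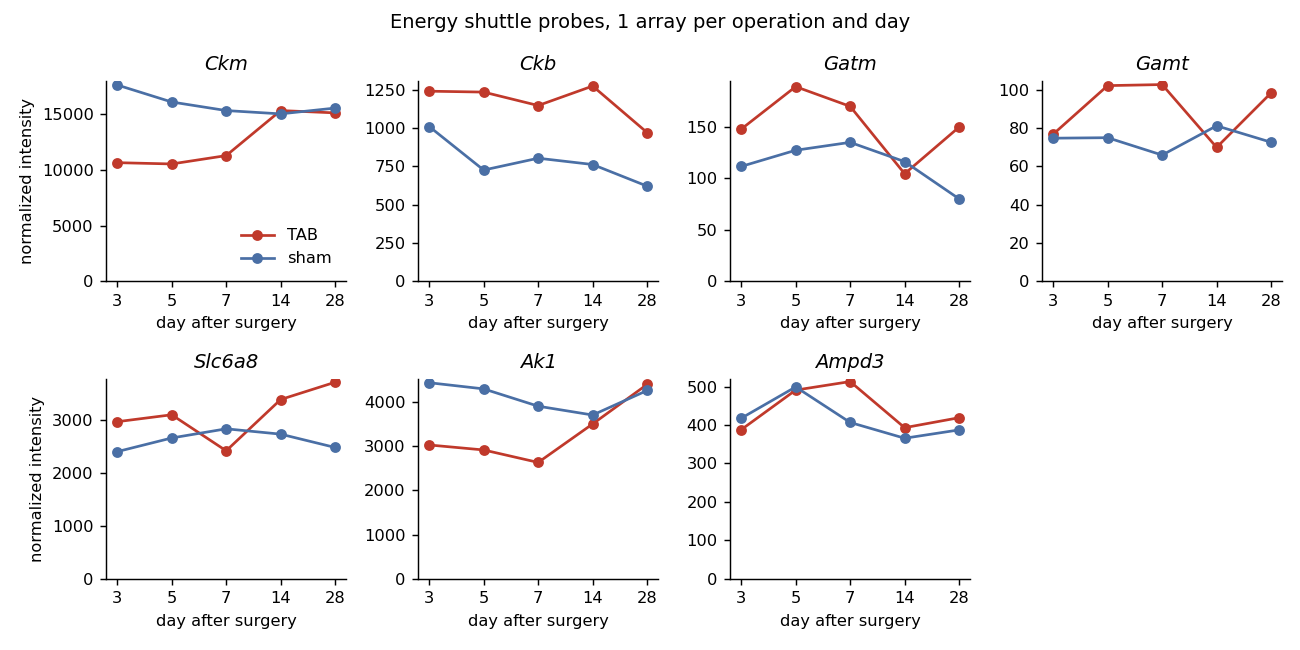
Normalized intensity (linear axis from 0, arbitrary units) of the 7 measured probes by day after surgery, with the days evenly spaced and 1 array per operation and day, so there are no error bars. *Ckm* and *Ak1* lie below sham in the TAB samples of days 3, 5 and 7 and next to it at days 14 and 28, and *Ckb* lies above sham on every day.

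Among the creatine kinase genes, *Ckb*, the brain-type cytosolic isozyme, had normalized intensities of 1241, 1236, 1148, 1275 and 971 in TAB and of 1010, 726, 803, 762 and 621 in sham. TAB was above sham of the same day on 5 of 5 days, a pattern seen in 15.6% of all kept probes, and the groups overlapped only because TAB at day 28 was below sham at day 3. The log2 ratios were 0.30, 0.77, 0.51, 0.74 and 0.65, with a mean of 0.59 ± 0.12 (SE, 5 days), 1.51-fold higher in TAB (limma adjusted p = 0.0307). Those of days 5 and 14 were beyond the largest difference between any 2 sham samples, 0.70. The call of *Ckb* was lost when any single day was left out (limma adjusted p = 0.0800, 0.0990, 0.0986, 0.0732 and 0.0521 without each of the 5 days in order) and when dim probes were kept at a floor of 1 (limma adjusted p = 0.0706). At day 3 the raw intensity was lower in TAB than in sham, 931 against 1023, with the dimmest array of the series on the TAB side, and the ratio was -0.14 without any scaling between arrays.

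Markers of other cell types moved with the operation in the same samples. Of 8 macrophage and leukocyte markers 7 were kept and 7 rose in TAB, with a summed normalized intensity of 2679 to 7089 in TAB and 1634 to 2057 in sham. Of 8 fibroblast markers 6 were kept and 4 rose (40298 to 55916 against 30665 to 32751), *Col1a1* and *Pdgfra* not being kept. Of 6 endothelial, 4 smooth muscle, 5 neural and 6 adipocyte and brown fat markers, tissues in which *Ckb* is known to be expressed or which a dissection can carry along, 6, 3, 5 and 5 were kept and 0, 1, 0 and 1 rose. Their sums were 5930 to 8529, 1300 to 1985, 207 to 251 and 2537 to 3309 in TAB against 5736 to 7111, 1092 to 1908, 187 to 245 and 1923 to 2436 in sham, and the probe of the brown fat marker *Ucp1* was not kept. Most of the fat sum was 1 probe, *Cidea*, with means of 2471 in TAB and 1846 in sham (limma adjusted p = 0.0632). *Cfd*, the fat marker that rose, had 206 against 116, while *Adipoq*, *Plin1* and *Retn* had 86.0 against 90.2, 80.8 against 86.7 and 32.4 against 44.9. The smooth muscle marker that rose, *Tagln*, had its spot found on 4 of 5 TAB and 0 of 5 sham arrays. *Acta2* and *Myh11*, found on all 10, did not pass the test (limma adjusted p = 0.295 and 0.759). The part of these other cell types in the *Ckb* values was not tested. In whole tissue, fewer cells of a type and less RNA per cell cannot be told apart.

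*Ckm*, the muscle-type cytosolic isozyme and the main creatine kinase subunit of the adult heart, had normalized intensities of 10658, 10542, 11295, 15348 and 15139 in TAB and 17650, 16119, 15348, 15049 and 15573 in sham. The TAB samples of days 3, 5 and 7 were below every sham sample, as they were for 15.7% of all kept probes, and those of days 14 and 28 lay within the sham range. Their place depended on the scaling, since with median scaling alone and with quantile normalization within each operation they too were below every sham sample, by log2 ratios of -0.04 and -0.08 and of -0.01 and -0.08 to sham of the same day. The log2 ratios were -0.73, -0.61, -0.44, 0.03 and -0.04, of which those of days 3, 5 and 7 exceeded the largest difference between 2 sham samples, 0.23. Over the 5 days the mean of -0.36 ± 0.15 (SE) did not pass the threshold (limma adjusted p = 0.159). The mean was -0.59 for days 3, 5 and 7 and -0.01 for days 14 and 28, and 17.3% of all kept probes had an early mean at or below that of *Ckm*. Their difference of -0.59 ± 0.20 (SE) had a limma p of 0.0323 and an adjusted p of 0.449, and so did not pass over all probes. For this contrast limma called 0 of 19976 probes (0%) at an adjusted p under 0.05, while 2086 (10.4%) had an unadjusted p under 0.05.

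*Ckb* and *Ckm* were also compared within each array. The pair was set against each other after their values had been seen. The log2 ratio of *Ckb* exceeded that of *Ckm* by 1.02, 1.38, 0.96, 0.71 and 0.69, and with median scaling alone by 0.96, 1.56, 1.11, 0.84 and 0.76. Within an array, the log2 intensity of *Ckm* minus that of *Ckb* was 3.10, 3.09, 3.30, 3.59 and 3.96 in TAB and 4.13, 4.47, 4.26, 4.30 and 4.65 in sham, without overlap. The size of this difference depends on the probes and does not give the relative amounts of the isozymes. It was given no test, since the pair was chosen for its values, and how often other pairs of probes separate as well was not computed.

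**Figure D2:**
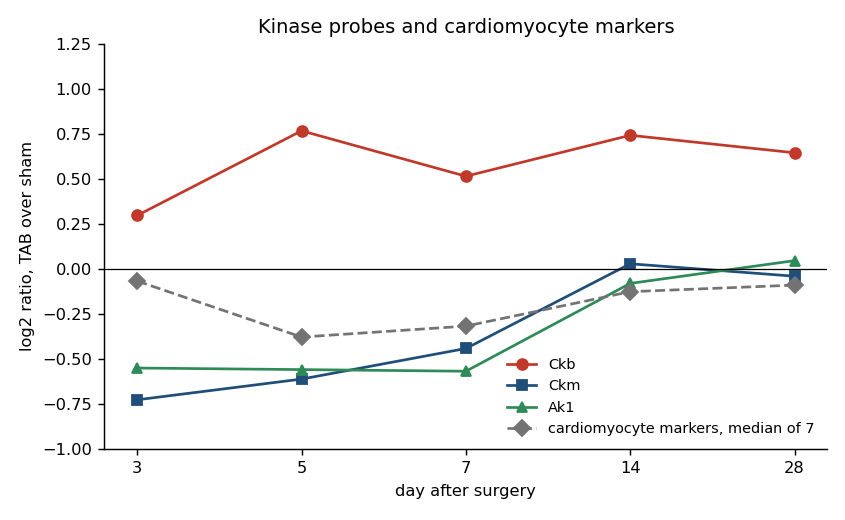
Log2 ratio of TAB over sham (y axis) by day after surgery (x axis, days evenly spaced) for *Ckb*, *Ckm* and *Ak1*, with the median of 7 cardiomyocyte markers, *Myl2* included, as a dashed line; each point compares 1 TAB with 1 sham array. *Ckm* and *Ak1* lie between -0.73 and -0.44 on days 3, 5 and 7 and between -0.08 and 0.05 on days 14 and 28, and *Ckb* stays above 0.

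*Ak1*, the main cytosolic adenylate kinase of muscle, had normalized intensities of 3025, 2912, 2630, 3500 and 4394 in TAB and 4432, 4293, 3902, 3702 and 4256 in sham. Like *Ckm*, it was below every sham sample in the TAB samples of days 3, 5 and 7, and that of day 14 was also below the lowest sham sample, although its log2 ratio was 0.04 with quantile normalization within each operation. By day 28 TAB lay inside the sham range. The log2 ratios were -0.55, -0.56, -0.57, -0.08 and 0.05, and the first 3 of them exceeded the largest difference between 2 sham samples, 0.26. With median scaling alone the ratios of days 3, 5 and 7 were -0.28, -0.54 and -0.42. The mean over 5 days was -0.34 ± 0.14 (SE; limma adjusted p = 0.151), and the means of the early and the late days were -0.56 and -0.02. The early minus late difference of *Ak1*, -0.54 ± 0.19 (SE), had a limma p of 0.0326 and an adjusted p of 0.449, and 18.9% of all kept probes had an early mean at or below that of *Ak1*. Over the 10 samples the log2 intensities of *Ckm* and *Ak1* had a Pearson correlation coefficient (*PCC*) of 0.90, the samples sharing day and operation.

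Both enzymes are abundant in muscle cells, and the markers of heart muscle were set beside them. Of 8 cardiomyocyte markers 7 were kept and 0 passed the test, with a summed normalized intensity of 214269 to 226572 in TAB and 219377 to 251694 in sham. The probe of *Myl2* was saturated on 9 of 10 arrays, and without it the sums of the other 6 were 148774 to 161073 and 153877 to 186195. The median log2 ratio of the 7 was -0.07, -0.38, -0.32, -0.13 and -0.09, and that of the 6 was -0.12, -0.40, -0.37, -0.25 and -0.22. The log2 ratio of *Ckm* minus the median of the 7 was -0.66, -0.23, -0.12, 0.16 and 0.05. That of *Ak1* was -0.48, -0.18, -0.25, 0.05 and 0.14, so both were lowest against the median at day 3 with this normalization. With median scaling alone, *Ckm* and *Ak1* had log2 ratios of -0.46 and -0.28 at day 3 and -0.73 and -0.54 at day 5. The markers were not set beside them under that scaling. The markers themselves differed at day 3, from a log2 ratio of -0.76 for *Pln*, below those of *Ckm* and *Ak1*, to 0.66 for *Myh6*, and *Pln* had -0.51 and -0.50 on days 5 and 7. Against the 6 markers, chosen after seeing the data, the differences were -0.61, -0.22, -0.07, 0.28 and 0.18 for *Ckm* and -0.43, -0.16, -0.20, 0.17 and 0.26 for *Ak1*. Of 8 skeletal muscle markers, which would show tissue carried along with the heart, 3 were kept, *Myh1*, *Myh2*, *Myh4*, *Mylpf* and *Pvalb* were not, and the sum was 153 to 263 in TAB and 240 to 263 in sham. The part of the muscle cell share in the *Ckm* and *Ak1* values was not tested.

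The genes that make and take up creatine had no call. *Gatm*, which makes the creatine precursor guanidinoacetate and is best known from the kidney, had normalized intensities of 148, 189, 170, 104 and 150 in TAB and 112, 127, 135, 116 and 80.0 in sham. TAB was above sham on 4 of 5 days, with day 14 as the exception. Its log2 ratios were 0.41, 0.57, 0.33, -0.15 and 0.91, and their mean of 0.41 ± 0.17 (SE) had a limma p of 0.0473 and an adjusted p of 0.143. Only the ratio of day 28 exceeded the largest difference between 2 sham samples, 0.75.

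*Gamt*, which methylates guanidinoacetate to creatine, had normalized intensities of 76.9, 102, 103, 70.0 and 98.5 in TAB and 74.8, 75.0, 65.9, 81.3 and 72.6 in sham. The TAB samples of days 5, 7 and 28 were above every sham sample, and that of day 14 was below its sham. The log2 ratios were 0.04, 0.45, 0.64, -0.22 and 0.44, with a mean of 0.27 ± 0.16 (SE; limma adjusted p = 0.276). The mean was 0.18 without day 7 and 0.17 with 50 added before log2. As both synthesis probes were near background, their values by day are a description only.

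*Slc6a8*, the creatine transporter through which heart muscle takes up nearly all of its creatine, had normalized intensities of 2964, 3095, 2415, 3383 and 3709 in TAB and 2399, 2657, 2830, 2729 and 2478 in sham. TAB was above every sham sample on days 3, 5, 14 and 28 and below its sham at day 7. The log2 ratios were 0.30, 0.22, -0.23, 0.31 and 0.58, those of days 3, 14 and 28 lying beyond the largest difference between 2 sham samples, 0.24. The mean of 0.24 ± 0.14 (SE) did not pass the test (limma adjusted p = 0.287), nor did the early mean of 0.10 against the late mean of 0.45 (limma adjusted p = 0.633). The early minus late difference of -0.35 was -0.18 without day 7 and -0.21 without day 28. With median scaling alone it was -0.24, and the ratios of days 3, 5 and 7 were 0.58, 0.27 and -0.03. The 5-day mean was 0.15 without day 28 and 0.37 both with median scaling alone and with quantile normalization within each operation, and passed the test in none of these.

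*Ampd3*, an AMP deaminase best known from red blood cells and also present in heart, had normalized intensities of 388, 491, 513, 393 and 419 in TAB and 418, 499, 407, 366 and 387 in sham. Its log2 ratios of -0.11, -0.02, 0.34, 0.10 and 0.11 were all within the largest difference between 2 sham samples, 0.45, and the mean was 0.08 ± 0.11 (SE; limma adjusted p = 0.638). It was 0.02 without day 7, 0.13 without day 3, 0.18 with median scaling alone and 0.17 with quantile normalization within each operation. *Ampd3* was the one member with no day beyond the sham differences. Of 6 erythroid markers, 3 were kept, the globin genes *Hba-a1* and *Hbb-b1* not among them, and 0 passed the test, with a sum of 428 to 829 in TAB and 307 to 375 in sham, and their part in the *Ampd3* values was not tested.

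**Figure D3:**
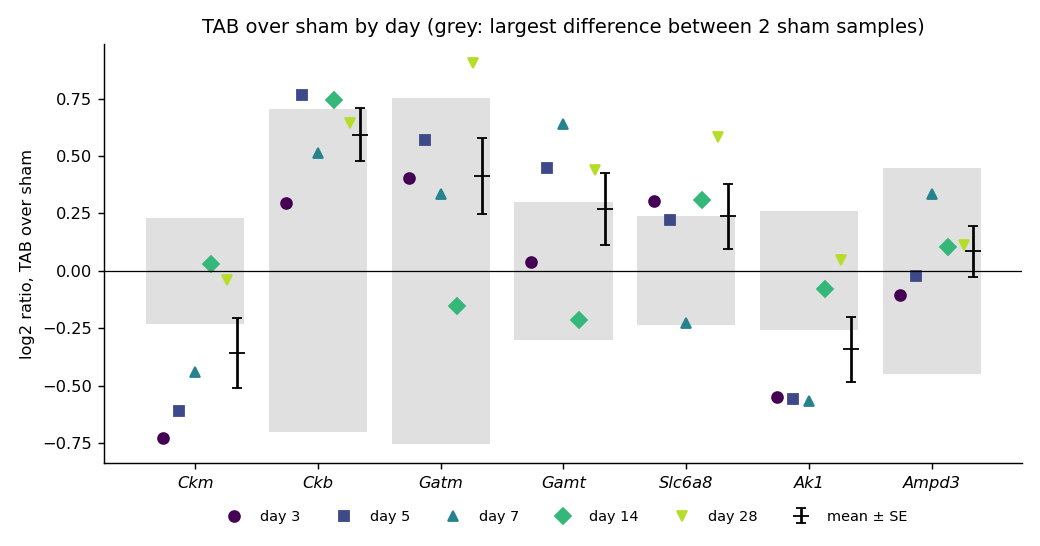
Log2 ratio of TAB over sham (y axis) for the 7 measured members (x axis), with 1 symbol per day, the mean over 5 days ± SE from limma in black, and a grey band reaching to the largest difference between 2 sham samples of that probe. *Ckm* and *Ak1* have 3 early days below the band, *Ampd3* has no day outside it, and *Ckb* has the only mean that passed the test.

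Taking the members as a group, 4 were higher and 3 lower in TAB on each of days 3, 5, 7 and 14, and 6 were higher and 1 lower on day 28. Of the 7 members, 4 (*Ckm*, *Gamt*, *Slc6a8* and *Ak1*) had at least 3 days with a log2 ratio beyond every difference between sham samples, which 23.8% of all kept probes had. The probe of *Gamt* among them was near background, as given above. No member had TAB and sham groups without overlap, which 16.4% of all kept probes had. With median scaling alone and with quantile normalization within each operation, 2 of 7 did, *Ckb* above and *Ckm* below sham, beside 16.2% and 16.6% of all kept probes. The members thus did not move in 1 direction.

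In the wider pathway, 51 genes of 9 lists had a kept probe and 8 passed the test, 4 higher and 4 lower, and without the members it was 7 of 44 genes, near the 14.2% over all probes. Without day 3, 5, 7 or 14, when few probes of the whole array were called, 0 of these genes passed the test, and 7 did without day 28. With dim probes kept at a floor of 1, 0 passed. Among the other creatine kinases and adenylate kinases no gene passed the test. The ubiquitous mitochondrial creatine kinase *Ckmt1* was not kept and had its spot found on no array. Of the 9 adenylate kinases 5 were kept, and next to *Ak1* the mean log2 ratios were 0.12 ± 0.10 and -0.38 ± 0.10 (SE) for *Ak3* and *Ak4* of the mitochondrial matrix (limma adjusted p = 0.465 and 0.0609). *Ak4*, given by 1 of its 3 probes, was lower in TAB on 5 of 5 days, and the share of all probes with that pattern was not computed.

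Of the 6 genes of AMP deamination and the purine nucleotide cycle, 5 were kept, 1 rose and 1 fell. *Ampd2*, the AMP deaminase best known from liver, rose (limma adjusted p = 0.0334) and was higher in TAB on 5 of 5 days, as were 15.6% of all kept probes. Its probe was as dim as that of *Gamt*, with a detection p-value of at least 0.05 on 5 of 5 TAB and 5 of 5 sham arrays, and the size of the difference is not given. *Adssl1*, the muscle-type adenylosuccinate synthase that starts the way back from IMP to AMP, fell with log2 ratios of -0.99, -1.16, -0.65, -0.65 and -0.18 (mean -0.73 ± 0.16, SE; limma adjusted p = 0.0402). The muscle AMP deaminase *Ampd1* was not kept and was found on no array. In AMP and IMP breakdown and salvage, 11 of 11 genes were kept and 2 rose. *Entpd1*, a cell surface enzyme that degrades ATP and ADP, rose (limma adjusted p = 0.0443), and *Ada*, adenosine deaminase, rose and was found on 5 of 5 TAB and 0 of 5 sham arrays (limma adjusted p = 0.0438). Both probes had a detection p-value of at least 0.05 on 5 of 5 TAB and 5 of 5 sham arrays, so the size of these differences is not given. Both genes are known from leukocytes, whose markers rose in the same samples as given above, and the part of those cells was not tested.

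Of the 7 subunits of the AMP-activated kinase, which responds to AMP, 7 were kept and 2 fell, both regulatory beta subunits. *Prkab2*, the form prominent in muscle, had a mean log2 ratio of -0.66 ± 0.12 and *Prkab1* of -0.48 ± 0.12 (SE; limma adjusted p = 0.0294 and 0.0490). *Prkag2*, the gamma subunit prominent in heart, had 0.54 ± 0.15 (SE; limma adjusted p = 0.0647), and the spots of *Prkaa2* and *Prkag3* were found on no array. In mitochondrial ATP export 6 of 7 genes were kept and 0 passed the test, and in the nucleoside diphosphate kinases 6 of 7 and 0, with median log2 ratios of -0.16 and -0.03. Of 6 genes of the estrogen-related receptors and PGC-1 coactivators, known regulators of energy metabolism in heart, 5 were kept and 1 fell. *Ppargc1a*, encoding PGC-1 alpha, was lower in TAB (limma adjusted p = 0.0205), on 5 of 5 days, a pattern whose share over all probes was not computed. Its spot was not found on the TAB array of day 3, and its detection p-value was at least 0.05 on 5 of 5 TAB and 3 of 5 sham arrays, so its probe was near background and the size of the difference is not given. *Esrra* and *Esrrg* had means of -0.36 ± 0.12 and -0.53 ± 0.16 (SE; limma adjusted p = 0.0880 and 0.0785).

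**Figure D4:**
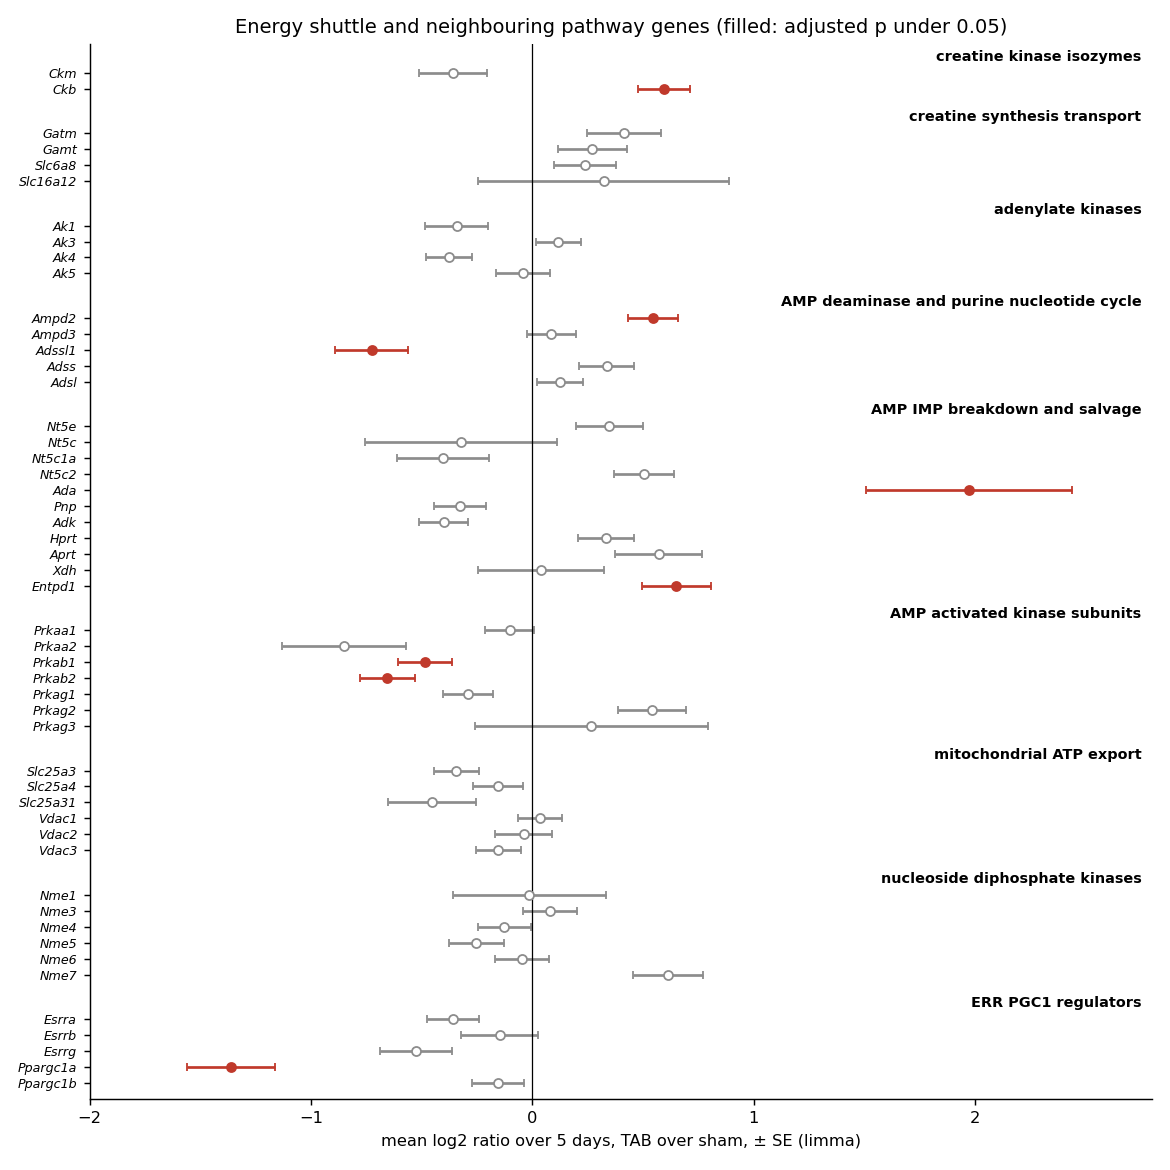
Mean log2 ratio of TAB over sham over 5 days ± SE from limma (x axis) for kept genes of the 9 pathway lists (y axis, grouped by list), filled where the adjusted p over all probes was under 0.05. The 8 filled points are *Ckb*, *Ampd2*, *Ada* and *Entpd1* to the right of 0 and *Adssl1*, *Prkab1*, *Prkab2* and *Ppargc1a* to the left, with the others open. Those of *Ampd2*, *Ada*, *Entpd1* and *Ppargc1a* are of probes near background.

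The genes most like each member were taken by the *PCC* of log2 intensities over the 10 samples among 10621 genes found on all arrays, as a description, the samples sharing day and operation. For *Ckm* they were the kinesin gene *Kif1b* (0.986), the keratin gene *Krt9* (0.968) and *Timm8b*, a helper of mitochondrial protein import (0.961). *Kif1b* had an early mean log2 ratio of -0.74 and a late one of -0.02, so it too was at the sham level late. For *Ak1* they were *Myo18a* (0.976), *Olfr1161* (0.967) and the potassium channel subunit *Kcnab3* (0.960), whose early mean was -1.07 and late mean -0.32. For *Ckb* they were *Whsc1l1* (0.959), the lipid phosphatase *Ppap2a* (0.958) and *Cnrip1* (0.953), with mean log2 ratios of 0.33, 0.46 and 0.47. The remaining members had *Rhoa* (0.924), *Tmem93* (0.907) and *Rab20* (0.895) next to *Gatm*, *Rae1* (0.953), *Abhd12* (0.879) and *Erp29* (0.878) next to *Gamt*, *Pdzd3* (0.939), *Ttc7b* (0.906) and *Ndrg1* (0.896) next to *Slc6a8*, and *2900064A13Rik* (0.896), *Fads3* (0.843) and *Myg1* (0.814) next to *Ampd3*. No gene of the pathway lists was among them.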

How the data were processed

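Cy5-labelled RNA was hybridized to a whole-genome mouse OneArray (1 colour), and spots were read with GenePix 4.1. The authors deposited raw, background-subtracted intensity values with a flag and a detection p-value for each spot, and how either was computed is not given in the sources used here. A flag of -50 was read as a spot not found, as GenePix commonly uses it. Largely following the study's methods, arrays were scaled to a common median of 47. Removing 6447 of 26423 probes with a scaled value under 1 on any array left 19976, which went through quantile normalization, with the median of all 10 arrays as the target of every rank, and log2. The methods describe the rank medians by condition, and the form within each operation was run as an alternative. limma 3.58.1 (R 4.3.3) was fitted on all kept probes with the day as a block and p-values adjusted by Benjamini-Hochberg. Days pair the samples by their labels, and same-day deviations correlated by 0.112, 0.00148, 0.0466, 0.0164 and 0.0163 in order of day. With 1 array per operation and day, the days serve as replicates, p-values measure only the spread between these samples, and precision is limited by how few arrays there are. Genes with several probes were represented by the probe found on most arrays, then the brightest. The members and lists were chosen with earlier results of these data known. Of the pathway lists, called genes (up to 3 a list and direction) and *Ckmt1*, *Ak3*, *Ak4*, *Ampd1*, *Ampd2*, *Prkag2*, *Ppargc1a*, *Esrra* and *Esrrg* were named, with the 3 genes most correlated with each member, and 1 further gene of this rule is not reported here. Alternatives covered normalization, offset, dim probes, probe choice, block, variance model and single days.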

Additional observations from a re-analysis of the deposited data

How the results depend on the processing

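With 5 arrays a group, calls rested on few samples. Of the 15 alternatives, *Ckb* was called in 9 (mean log2 ratio 0.55 to 0.70, limma adjusted p 0.00413 to 0.0990). *Ckm* (-0.46 to -0.27) and *Ak1* (-0.44 to -0.24) were called in none (limma adjusted p 0.0557 to 0.348 and 0.0586 to 0.335), and neither were *Gatm* (0.29 to 0.55), *Gamt* (0.17 to 0.39), *Slc6a8* (0.15 to 0.37) and *Ampd3* (0.02 to 0.18), and no mean log2 ratio of a member had its sign reversed. The members called numbered 0 with probes below 1 set to 1 and 0 without any one day. The cause of the other shifts was not tested. The 2836 of 19976 probes called became 4890 (2365 higher, 2525 lower) with 50 added before log2. With probes below 1 set to 1 they were 371 of 26423 (264 higher, 107 lower), and among probes found on all arrays 4377 of 12654 (2345 lower). With trend and robust variances they were 4726 (2290 higher, 2436 lower). Median scaling left 884 lower and made 66.4% of calls higher, quantile normalization within each operation 65.5% and probes set to 1 71.2%, against 52.6%. Leaving out 1 day gave 13 to 2773 calls (13 to 1455 higher, 0 to 1318 lower), 13, 35, 23, 184 and 2773 without each day in order. The 0 early against late calls became 9 with 50 added, 9 among probes found on all arrays, 35 with trend and robust variances and 2 without the replicate block, and were 0 to 0 without any one day. The 8 pathway genes called became 17, 0, 15 and 18 under the first 4 settings, where the calls over all probes moved too, as given above. They became 13 without the block, and 0 to 7 without any one day (0 for 4 of the 5 days). Without the block 3875 probes were called, and it changed no call of a member. The *Ckb* ratio of day 3 was -0.14 without scaling, an alternative chosen after seeing the data like the one without *Myl2*, and 0.50 with median scaling. The early minus late difference reversed for *Ampd3* with median scaling (0.01), without day 3 (0.05) and without day 5 (0.00), for *Gatm* without day 5 (-0.01) and day 14 (-0.47), and for *Gamt* without day 14 (-0.06), none of them called.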
